A study of Rattus norvegicus with 107 samples.

Results

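Genes of the cell cycle and of DNA replication were followed in the colon and brain of suckling rats by the levels of their transcripts at 9 ages. The set was defined by name, as 50 genes that encode cyclins, cyclin-dependent kinases and their inhibitors, replication factors and mitotic proteins. No cutoff on a measured value defined it, but its members were chosen with earlier results of these data known. The annotation of the array names 42 of the 50, among 13337 named genes in all, and Mki67, Top2a, Cdk2, Ccnd3, Rrm1, Tk1, Birc5 and Tacc3 were not named there and were not analysed here. The animals were Sprague Dawley rats without a drug or genetic treatment, taken at embryonic day 21 (E21, the day before birth, the study's PND -1) and on postnatal days (PND) 1, 2, 3, 5, 7, 10, 15 and 22. RNA of colon and of the right brain hemisphere was hybridized to Illumina RatRef-12 BeadChips, in 53 samples of colon and 54 of brain, which is 6 for each tissue and age save for 5 colons at E21. The paper extracted this RNA from about 10 mg of tissue per sample, and does not give the region that each piece held. All E21 pups came from 1 mother by Caesarean section, and the effects of that age and of that mother cannot be told apart. Which later pups shared a dam is not given in the sources used here, and the p-values measure the spread between samples.

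A dividing cell first licenses its replication origins by loading the ring-shaped MCM helicase, then copies its DNA in S phase, and then separates the copies in mitosis. Cyclins that bind and activate Cdk kinases drive each step, and CDK inhibitors hold it back. Most of these genes are transcribed only in cycling cells, under E2F factors for the S phase genes and under the MuvB complexes for the mitotic ones. In the rodent colon the crypts keep dividing throughout life. In the brain most neurons outside the cerebellum are born before birth, whereas the precursors of the granule cells of the cerebellum divide after birth. In RNA of unsorted tissue, fewer cycling cells and less transcript per cell cannot be told apart.

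The promoters of 5 of the genes described below are shown first, as examples of windows with several motifs, some of them shared, and of 1 with none. Promoter windows of 300 bases, from 250 bases before to 50 bases after the start of transcription, were taken from RefSeq on the GRCr8 build and matched 33 of the 42 genes. The genes shown were chosen after their values were seen. Cks2, Cdk1 and Ccnb2 had the largest mitotic falls in brain, Mcm6 had the largest fall of the MCM genes in both tissues, and Cdk4 fell in both tissues and held none of the motifs searched. Capitals mark the CCAAT box (CCAAT), the cell cycle homology region (TTTGAA) and the E2F site (TTTGGCGC, TTTCCCGC, TTTCGCGC or TTTGCCGC), each searched on both strands, so that a match on the other strand reads as ATTGG or TTCAAA. The windows lie at chr17:13727470-13727769 (minus strand, Cks2), chr20:19265043-19265342 (plus strand, Cdk1), chr8:79981609-79981908 (minus strand, Ccnb2), chr13:42404303-42404602 (minus strand, Mcm6) and chr7:64771203-64771502 (plus strand, Cdk4), and each is written 5′ to 3′ along its gene.
Cks2: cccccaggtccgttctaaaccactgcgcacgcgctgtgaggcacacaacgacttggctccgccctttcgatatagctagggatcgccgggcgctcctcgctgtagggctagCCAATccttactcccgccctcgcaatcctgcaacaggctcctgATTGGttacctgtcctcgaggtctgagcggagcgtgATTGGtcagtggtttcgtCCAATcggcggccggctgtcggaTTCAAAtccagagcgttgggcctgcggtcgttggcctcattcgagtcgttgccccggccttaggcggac
Cdk1: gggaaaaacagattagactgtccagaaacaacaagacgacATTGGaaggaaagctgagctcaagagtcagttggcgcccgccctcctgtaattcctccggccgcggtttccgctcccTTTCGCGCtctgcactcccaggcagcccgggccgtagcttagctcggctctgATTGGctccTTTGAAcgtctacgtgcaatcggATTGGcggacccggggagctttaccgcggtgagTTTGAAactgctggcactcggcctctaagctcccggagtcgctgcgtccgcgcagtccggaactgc
Ccnb2: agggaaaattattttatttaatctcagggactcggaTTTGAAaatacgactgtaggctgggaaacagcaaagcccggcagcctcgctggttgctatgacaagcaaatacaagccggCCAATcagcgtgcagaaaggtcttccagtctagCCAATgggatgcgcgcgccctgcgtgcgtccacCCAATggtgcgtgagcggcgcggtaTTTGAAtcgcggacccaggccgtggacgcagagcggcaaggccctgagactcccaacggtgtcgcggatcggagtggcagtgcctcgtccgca
Mcm6: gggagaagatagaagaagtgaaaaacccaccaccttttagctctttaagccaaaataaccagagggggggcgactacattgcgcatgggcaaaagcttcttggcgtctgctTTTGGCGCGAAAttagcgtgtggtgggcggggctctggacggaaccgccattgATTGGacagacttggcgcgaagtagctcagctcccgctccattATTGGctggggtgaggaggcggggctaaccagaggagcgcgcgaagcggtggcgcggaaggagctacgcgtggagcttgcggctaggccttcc
Cdk4: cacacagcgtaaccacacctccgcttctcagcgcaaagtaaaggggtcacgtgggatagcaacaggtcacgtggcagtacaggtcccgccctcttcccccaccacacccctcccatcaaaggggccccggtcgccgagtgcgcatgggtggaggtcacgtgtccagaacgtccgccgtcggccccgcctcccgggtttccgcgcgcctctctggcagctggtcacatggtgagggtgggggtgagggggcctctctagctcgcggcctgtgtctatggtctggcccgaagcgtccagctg
The capital run in the Mcm6 window is a pair of E2F matches on opposite strands that overlap.

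A CCAAT box was found in 22 of the 33 windows (66.7%), against 37.5% of all 33469 RefSeq windows. An E2F site was found in 10 of the 33 (30.3%), against 2.14% of all windows, and TTTGAA in 11 (33.3%), against 18.3%. Both a CCAAT box and TTTGAA were found in 9 (27.3%), namely Ccnb2, Cdc20, Cdk1, Cdkn3, Cks2, Hmgb2, Nusap1, Plk1 and Prc1, against 7.41% of all windows. A match is a description of the letters and not a measured site of binding. Matches of different motifs overlapped only in the Mcm7 window, and E2F matches on both strands overlapped in those of Mcm2, Mcm5 and Mcm6.

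The array reads each transcript with a short probe, and the signals below are quantile normalized intensities without a unit, so that they are compared between samples and not between genes. Before normalization the median signal of an array was 43.6 to 123 in colon and 42.9 to 132 in brain, and 10276 to 12277 and 9617 to 12016 of 22523 probes were detected above the negative control beads (detection p under 0.05). Of the 42 genes, 36 were detected in every colon sample and 23 in every brain sample. Ccnb1, the cyclin of the entry into mitosis, was detected in 4 of 53 colon and 4 of 54 brain samples, so that the arrays hardly measured it. Of the markers of the labelled tissues, 7 markers of intestinal epithelium summed to 34750 to 64840 in colon and 430.4 to 810.2 in brain at the 5 ages compared below, and 8 neuronal markers to 640.5 to 4830 in colon and 14920 to 27730 in brain.

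In 4 libraries the genes and the markers of other cell types stood apart. Replicate 4 of colon at E21 had a mean log2 signal of the 42 genes of 8.43, against 8.81 to 8.9 in the other 4 E21 colons, and its 8 neuronal markers summed to 4830, against 996 to 1146. Replicates 1 and 2 of colon at PND 22 had sums of 23700 and 29700 over 7 fibroblast markers, against 9691 to 13330 in the other 4, and the 42 genes averaged 8.04 and 8.17 there, against 7.85 to 7.95. Replicate 6 of brain at PND 15 had a sum of 776.9 over 6 markers listed for cerebellar granule cell precursors, against 2636 to 3865 in the other 5, and the lowest mean of the 42 genes at that age (7.02). The same library had the highest sums of that age over 7 epithelial markers (810.2, against 430.4 to 480.9) and 5 smooth muscle markers (696.8, against 382 to 419.9). The part of each of these libraries in the results was measured by leaving it out in turn. Replicates 1 and 2 of colon at PND 22 were not left out together, so that their joint part was not measured.

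In both tissues the genes fell between E21 and PND 22, with courses that parted between PND 3 and PND 10. In colon the mean log2 signal of the 42 genes was 8.76 ± 0.19 at E21 (SD, n = 5) and 8.54, 8.62, 8.62, 8.58, 8.36, 8.19 and 7.97 at PND 1, 2, 3, 5, 7, 10 and 15, and it was 7.98 ± 0.11 at PND 22 (SD, n = 6). In brain it was 7.83 ± 0.06 at E21 (SD, n = 6), stayed between 7.58 and 7.64 from PND 1 to PND 10, and was 7.17 ± 0.10 at PND 15 and 6.83 ± 0.02 at PND 22. Both means were lower at PND 1 than at E21, with differences of -0.22 in colon and -0.25 in brain, and in brain the samples of these ages did not overlap. In colon E21 replicate 4 (8.43) lay below the PND 1 samples (8.45 to 8.63), and the other E21 colons (8.81 to 8.9) lay above them all. From PND 1 the colon mean stayed between 8.54 and 8.62 until PND 5, declined to PND 15 and was level afterwards, while the brain mean was level until PND 10 and declined to the last age. At every age the colon samples lay above the brain samples without overlap.

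**Figure D1:**
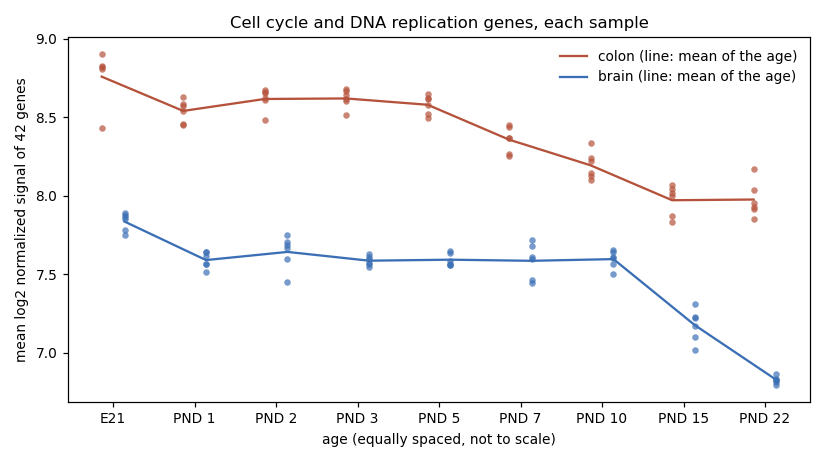
Mean log2 normalized signal of the 42 genes (vertical axis) in every sample (points) at each of the 9 ages (horizontal axis, equally spaced), with lines through the mean of each age, for colon (red) and brain (blue). The colon means descend after PND 5 to 7.97 at PND 15, and the brain means hold near 7.6 until PND 10 and end at 6.83; the low colon point at E21 is replicate 4.

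Over the 9 ages, 40 of the 42 genes changed in colon (all but Ccnb1 and Ccnd2) and 36 in brain (limma's F test, Benjamini-Hochberg adjusted p under 0.01), against 36.7% and 35.4% of all probes. In colon 33 genes were lower and 2 higher at PND 22 than at E21 by the same threshold, with a median log2 change of -0.95, against 13.8% of all probes lower and 11.6% higher. In brain 34 were lower and none higher at an adjusted p under 0.01 (0 higher also at an unadjusted p under 0.05), with a median of -0.99, against 14.0% of all probes lower and 12.1% higher. The lower genes were shared, since 32 fell in both tissues. At PND 22 all samples lay below all E21 samples for 26 genes in colon and 33 in brain, against 9.88% and 11.7% of all probes, and above them for 3 genes in colon (8.76% of all probes). The median change of all probes was within 0.02 of 0 in every step.

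The steps separated the tissues. From PND 3 to PND 10, 30 genes fell in colon with a median of -0.47 (3.26% of all probes fell), and 2, Stmn1 and Lig1, fell in brain with a median over the 42 genes of 0.03 (3.84% fell). From PND 10 to PND 15 fewer genes fell in colon (8, median -0.30, 0.644% of all probes) than in brain (23, median -0.44, 3.84%). The difference between the tissues in that step, tested below, passed for only 2 genes, with a median over the 42 genes of 0.13. From PND 15 to PND 22, 4 genes fell and 3 rose in colon (median 0.04; 9.27% of all probes fell and 9.13% rose), and 14 fell in brain (median -0.23, 1.33%). Across birth, at PND 3 relative to E21, 4 genes fell in colon (median -0.13, 1.95% of all probes) and 5 in brain (median -0.27, 1.32%), although 13 and 26 were lower at an unadjusted p under 0.05. From PND 10 to PND 15, 24 genes in colon and 32 in brain were lower by that measure. The share of all probes at the unadjusted threshold was not counted, so that these unadjusted counts have no background beside them. Between neighbouring ages of all 9, the steepest fall was the step to PND 15 for 17 genes in colon and 21 in brain, and the step to PND 1 for 8 in each. It was the step to PND 7 for 7 genes in colon and 1 in brain, and the step to PND 22 for 5 in colon and 10 in brain. The count of 8 in colon from PND 10 to PND 15 rested on single libraries, and was 3 without PND 10 replicate 1 or 3, 5 without PND 10 replicate 6, 4 without PND 15 replicate 4, 2 without PND 15 replicate 5 and 3 without PND 15 replicate 6.

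**Figure D2:**
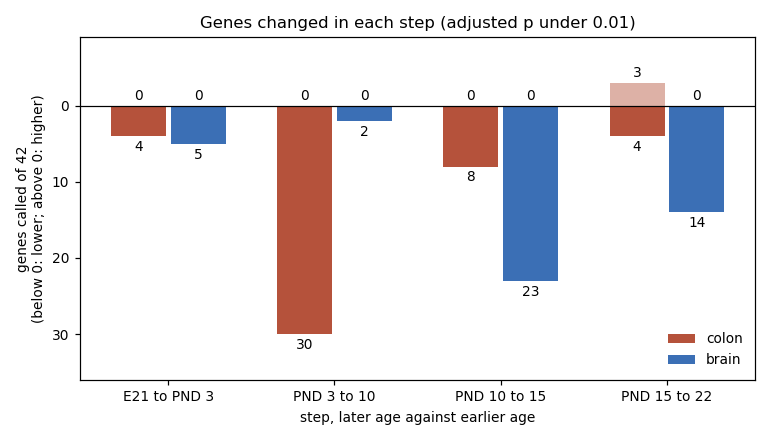
Number of the 42 genes called (vertical axis) in each step between neighbouring ages compared (horizontal axis), with bars below 0 for genes lower and above 0 for genes higher at the later age, at an adjusted p under 0.01, for colon (red) and brain (blue). The tallest bar is 30 at PND 3 to 10 in colon and 23 at PND 10 to 15 in brain.

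The difference between the tissues was tested itself, as the colon change minus the brain change in 1 fit over both. From PND 3 to PND 10 the colon change was lower than the brain change for 24 of the 42 genes, with a median difference of -0.53 on the log2 scale, against 3.62% of all probes, and higher for 0 genes (0 at an unadjusted p under 0.05), against 2.86%. From PND 15 to PND 22 it was higher for 15, against 5.96%, and lower for 0 (1 at an unadjusted p under 0.05), against 6.68%. Over the whole span from E21 to PND 22 the colon change was the higher one for 10 genes and the lower one for 4 (11.0% of all probes each way), of which Mcm3 and Plk1 were not detected in brain at PND 22. These counts were 18 and 3 with normexp background correction, and 14 and 2 with each array scaled to its 75th percentile. From PND 10 to PND 15 the difference passed only for Cks2 (0.74 ± 0.15, SE, adjusted p = 0.00047) and Ube2c (0.67 ± 0.16, adjusted p = 0.0076), against 0.568% of all probes. At PND 3 relative to E21 no gene passed, against 2.10% of all probes, although 5 had an unadjusted p under 0.05. The 24 differences of PND 3 to PND 10 were 18 to 24 when any sample was left out.

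Among the 15 genes that fell by at least 1 on the log2 scale in both tissues, the share of the E21 to PND 22 log2 fall that was reached by each age gave the timing in another form. In colon the median share was 24.6%, 23.0%, 19.9%, 25.8%, 51.7%, 66.7% and 95.5% at PND 1, 2, 3, 5, 7, 10 and 15. In brain it was 24.7%, 16.7%, 23.1%, 25.8%, 28.2%, 21.8% and 65.7% at the same ages. At PND 10 the share was higher in colon than in brain for 14 of the 15 genes, and at PND 5 for 6 of them. The exception at PND 10 was Stmn1, with 35.7% in colon and 42.4% in brain. The 133 probes of the array that met the same condition had reached a median of 35.7% in colon and 43.6% in brain by PND 10, and 49.9% and 75.5% by PND 15. These shares are a description, and the tests are those of the steps above.

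**Figure D3:**
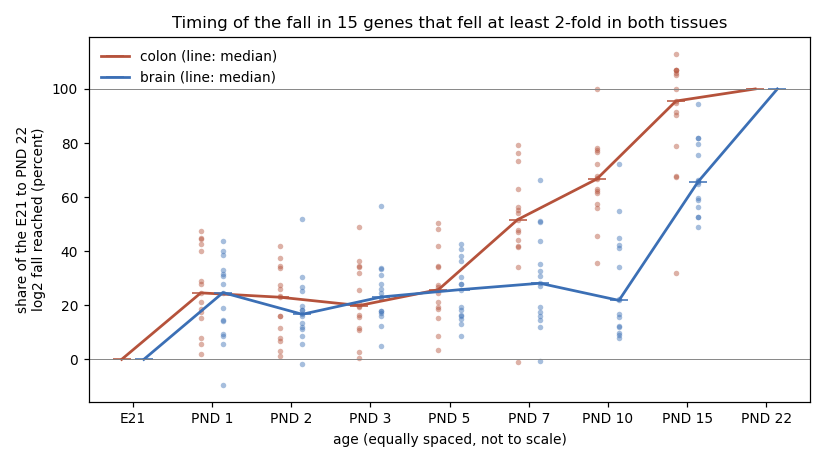
Share of the log2 fall between E21 and PND 22 reached by each age (vertical axis, percent) for the 15 genes that fell by at least 1 on the log2 scale in both tissues, with points for genes and lines and bars for their median, in colon (red) and brain (blue), over the 9 ages (horizontal axis, equally spaced). The median is 66.7% in colon and 21.8% in brain at PND 10.

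Among the S phase and mitotic cyclins and Cdk1, 3 of 6 differences between the tissues passed over the whole span, those of Cks2, Cdk1 and Ccnb2. Cdk1, the kinase that starts mitosis, had a lowest, median and highest signal of 467.8, 546.7 and 807.1 in colon at PND 22, and 1247, 1171, 789.3, 1295 and 1443 in the E21 colons. The replicate 2 value of 807.1 and the replicate 4 value of 789.3 were the only ones to overlap. In brain Cdk1 was 78.4, 82.7 and 90.0 at PND 22 and 365.2, 419.0 and 475.4 at E21, far apart. It thus fell 2.04-fold in colon (-1.03 ± 0.12, adjusted p = 5.8e-10) and 4.99-fold in brain (-2.32 ± 0.12, adjusted p = 5.1e-24), a difference of 1.29 ± 0.18 (adjusted p = 9.1e-10). In brain, medians of 314.5 at PND 3 and 314.6 at PND 10 gave way to 187.7 at PND 15 and 82.7 at PND 22. In colon they were 1158, 785.1, 597.1 and 546.7 at the same ages.

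Cks2, a small subunit that docks Cdk1 to its substrates, had the largest difference of all 42 genes. Its signals were 983.4, 1070 and 1322 (lowest, median, highest) in colon at PND 22, and 2153, 2215, 1569, 2075 and 2081 at E21. In brain they were 101.8, 113.1 and 127.6 at PND 22 and 495.8, 592.2 and 674.7 at E21. The ages did not overlap in either tissue, and the fall was 1.83-fold in colon and 5.19-fold in brain (difference 1.5 ± 0.15, adjusted p = 8.7e-15). Ccnb2, a mitotic cyclin, fell 2.12-fold in colon and 4.52-fold in brain (difference 1.09 ± 0.19, adjusted p = 9.9e-07), with brain medians of 477.4, 368.0, 377.1, 229.3 and 107.5 at E21 and PND 3, 10, 15 and 22. Ccna2, the cyclin of S phase and G2, fell 2.13-fold in colon and 2.91-fold in brain, and the brain change took place after PND 10, with -0.79 ± 0.11 to PND 15 and -0.62 ± 0.11 to PND 22. In this group of 6 genes, 4 fell in colon from PND 3 to PND 10 and none in brain, and the same 4 fell in brain in each of the 2 later steps. Ccne1, the cyclin of the start of S phase, and Ccnb1 passed in neither tissue between E21 and PND 22.

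The general proliferation markers on the array were Hmgb2, a chromatin protein abundant in cycling cells, and Stmn1, which destabilizes microtubules and is also abundant in young neurons. Hmgb2 had signals of 943.2, 994.2 and 1399 in colon at PND 22, and 3664, 3176, 1733, 3309 and 2553 at E21. In brain it had 113.8, 120.8 and 140.7 at PND 22 and 583.2, 748.2 and 822.4 at E21. No sample overlapped between these ages, and the fall was 2.63-fold in colon and 5.83-fold in brain, the largest of the 42 genes there (difference 1.15 ± 0.24, adjusted p = 6.1e-05). Stmn1 went another way in time, since it fell in colon mainly after PND 15 (-0.97 ± 0.11, adjusted p = 1.4e-10), with medians of 1643, 1496, 1148, 1184 and 612.6 at E21 and PND 3, 10, 15 and 22. In brain its medians were 8080, 7811, 5695, 5429 and 3505, with a fall between PND 3 and PND 10 (-0.45 ± 0.08, adjusted p = 2.0e-05) and a second after PND 15 (-0.61 ± 0.08, adjusted p = 7.3e-08), the first of which was lost with 75th percentile scaling (adjusted p = 0.019). The tissues' changes of Stmn1 did not pass as different in any step.

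The G1 genes did not move together. Ccnd1, the cyclin D1 that links growth signals to the cycle, was the only gene called in opposite directions in the tissues. In colon it had 1538, 1774 and 2099 at PND 22, above the 1067, 1285, 1067, 922 and 1170 of the E21 samples. In brain it had 341.7, 369.4 and 450.9 at PND 22, below the 491.9, 506.3 and 530.2 at E21. It was 1.62-fold higher at PND 22 than at E21 in colon and 1.35-fold lower in brain, without overlap in either tissue (difference 1.13 ± 0.15, adjusted p = 1.9e-10). Cdk4, the kinase that cyclin D1 binds, fell in both. Its signals were 331.8, 359.4 and 504.8 in colon at PND 22, where replicate 1 was the high one, and 1331, 1399, 853.5, 1555 and 1259 at E21. In brain they were 270.4, 315.4 and 336.0 at PND 22 and 914.0, 1124 and 1480 at E21. The fall was 3.33-fold in colon and 3.68-fold in brain, and the difference of 0.14 ± 0.18 did not pass (adjusted p = 0.67). Its steps were likewise not distinguishable, with a difference of -0.14 ± 0.18 from PND 3 to PND 10 (adjusted p = 0.76). Ccnd2 was detected in 18 of 53 colon samples and 1 of 54 brain samples and passed in no comparison between 2 ages, although it passed over the 9 ages in brain (adjusted p = 0.0075).

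**Figure D4:**
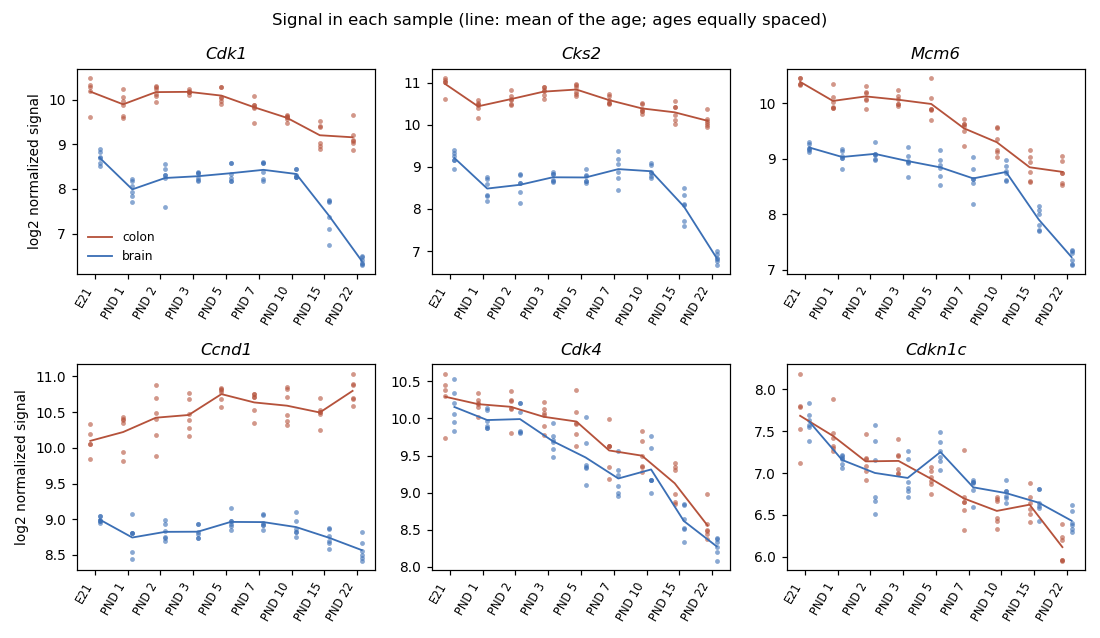
Log2 normalized signal (vertical axes, a scale for each panel) in every sample (points) with lines through the mean of each age, over the 9 ages (horizontal axes, equally spaced), for Cdk1, Cks2 and Mcm6 in the upper panels and Ccnd1, Cdk4 and Cdkn1c in the lower ones, in colon (red) and brain (blue). The brain lines of the upper genes drop after PND 10, Ccnd1 ends higher in colon and lower in brain than at E21, and Cdk4 descends in both tissues.

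The 3 CDK inhibitors differed. Cdkn1c (p57), an inhibitor that is high in differentiating embryonic tissue, fell over the whole span in both tissues. In colon its signals were 61.9, 68.0 and 84.0 at PND 22, when 3 of 6 samples were detected, and 184.5, 290.7, 139.3, 222.1 and 220.4 at E21. In brain they were 78.9, 84.2 and 98.0 at PND 22 and 167.3, 194.4 and 228.5 at E21, again without overlap. At PND 3 it was already lower than at E21 in colon (-0.54 ± 0.13, adjusted p = 0.0047) and in brain (-0.67 ± 0.11, adjusted p = 3.4e-05), and 34.3% of its fall in colon and 56.8% in brain was reached by then. The colon call of that step was lost with normexp background correction (adjusted p = 0.016), with 75th percentile scaling (adjusted p = 0.015) and without E21 replicate 3, 5 or 6 or PND 3 replicate 1, 5 or 6 (adjusted p up to 0.042). Cdkn1a (p21), which stops the cycle after damage and during differentiation, was higher in colon at PND 22 than at E21 (1.57-fold, 0.65 ± 0.11, adjusted p = 2.2e-06), with 88.9, 98.6 and 112.8 at PND 22 and 70.0, 61.6, 62.1, 59.7 and 62.5 at E21, all E21 samples being lower. Only 1 of the 5 E21 colons was detected, and in brain Cdkn1a was detected in 2 of 54 samples. Cdkn1b (p27), which holds quiescent cells, had a change of 0.41 ± 0.14 in colon (adjusted p = 0.020) and -0.07 ± 0.14 in brain, and its differences did not pass.

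Of the phosphatases, Cdkn3, which removes an activating phosphate from Cdk2 and Cdk1, fell 1.60-fold in colon and 3.17-fold in brain (difference 0.99 ± 0.15, adjusted p = 2.4e-08). Its brain medians were 258.8, 213.1, 199.9, 125.1 and 80.0 at E21 and PND 3, 10, 15 and 22, and its colon medians 700.3, 606.6, 514.9, 460.4 and 404.6, with no single colon step passing. Cdc25b, which activates Cdk1, stayed near the detection limit, with 32 of 53 colon and 29 of 54 brain samples detected, and its change from E21 to PND 22 was -0.05 ± 0.07 in colon and 0.00 ± 0.07 in brain. Its colon change minus its brain change from PND 3 to PND 10 passed (-0.44 ± 0.10, adjusted p = 0.00065, and 0.27 with 75th percentile scaling), though neither tissue's own change did.

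The licensing genes fell in colon as a block. All 7 of them, Mcm2 to Mcm7 of the helicase and Gmnn, the inhibitor that prevents a repeat of licensing, fell from PND 3 to PND 10 in colon and none did in brain, and 6 of the 7 differences between the tissues passed, all but that of Mcm7 (-0.22 ± 0.13, adjusted p = 0.36). Mcm6 had signals of 368.9, 429.1 and 530.2 in colon at PND 22, and 1313, 1401, 1288, 1409 and 1305 at E21. In brain it had 135.8, 150.9 and 164.1 at PND 22 and 558.8, 582.2 and 634.6 at E21. The ages were far apart in both tissues, and Mcm6 fell 3.08-fold in colon and 3.94-fold in brain. From PND 3 to PND 10 its change was -0.77 ± 0.11 in colon (adjusted p = 5.0e-07) and -0.20 ± 0.10 in brain (adjusted p = 0.20), and from PND 10 to PND 15 it was -0.45 ± 0.11 and -0.86 ± 0.10. Mcm2 fell 2.53-fold in colon and 2.14-fold in brain, and Mcm7 2.10-fold and 2.64-fold.

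Mcm3 and Mcm4 were dim in brain. Mcm4 had medians of 105.6 at PND 22 and 227.0 at E21 in colon, and 95.3 at PND 22 and 124.6 at E21 in brain (difference -0.57 ± 0.12, adjusted p = 7.3e-05). Mcm3 fell 2.02-fold in colon, with medians of 103.6 at PND 22 and 222.2 at E21. In brain it was not detected in any sample at PND 22, so that only a bound, at least 1.13-fold lower at PND 22 than at E21, can be given, and its difference between the tissues cannot be ranked. Mcm5 was lower at PND 22 by 1.59-fold in colon and 1.43-fold in brain. Gmnn was the member that turned in colon, with medians of 478.3, 413.2, 264.0, 196.3 and 341.4 at E21 and PND 3, 10, 15 and 22. It was higher at PND 22 than at PND 15 there by 0.80 ± 0.10 (adjusted p = 3.8e-09), with 318.5 as the lowest value at PND 22 and 233.3 as the highest at PND 15. In brain its medians were 254.3 at PND 10, 192.8 at PND 15 and 169.0 at PND 22, and the tissues differed in this last step by 0.98 ± 0.13 (adjusted p = 2.1e-09).

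At the replication fork, Lig1, the ligase that joins the fragments of the lagging strand, fell at the same ages in both tissues. Its medians were 512.3, 405.7, 278.6, 220.5 and 212.0 in colon and 266.1, 241.1, 166.0, 126.7 and 115.0 in brain at E21 and PND 3, 10, 15 and 22, and its differences between the tissues did not pass in any step. Fen1, which trims those fragments, fell in colon and did not pass in brain. In colon it had 109.0, 121.8 and 160.9 at PND 22 and 257.6, 259.4, 192.2, 250.9 and 300.4 at E21, without overlap and 1.96-fold lower. In brain it had 103.8, 113.0 and 132.1 at PND 22 and 112.7, 125.7 and 146.4 at E21, with overlap (-0.14 ± 0.09, adjusted p = 0.28). The difference of -0.83 ± 0.13 (adjusted p = 1.4e-07) was the lowest of the set. Pcna, the sliding clamp, fell 1.54-fold in colon and 1.76-fold in brain, and Rfc4, of the clamp loader, 1.62-fold and 1.81-fold. Prim1, the primase that starts each fragment, fell 1.79-fold and 1.75-fold. Differences of these 3 genes did not pass in any step, and with 75th percentile scaling the colon fall of Pcna no longer passed (adjusted p = 0.20).

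Rrm2, the regulated subunit of ribonucleotide reductase that supplies deoxynucleotides in S phase, fell 1.62-fold in colon and 3.45-fold in brain (difference 1.09 ± 0.19, adjusted p = 1.3e-06). In colon it had 344.6, 377.4 and 597.2 at PND 22 and 765.3, 719.8, 304.5, 829.0 and 862.3 at E21. Replicate 4 of E21 was lower than every PND 22 sample, and without it the E21 samples lay above them all. In brain it had 72.3, 79.2 and 81.4 at PND 22 and 245.3, 270.3 and 297.1 at E21. Its colon change from PND 3 to PND 10 was -0.67 ± 0.15 and its brain change 0.22 ± 0.11, and the difference of -0.90 ± 0.19 (adjusted p = 0.00021) was the lowest of the set in that step. Tyms, which makes thymidylate, fell 1.69-fold in brain (adjusted p = 1.5e-10) and did not pass in colon between E21 and PND 22 (-0.19 ± 0.13, adjusted p = 0.28). Its difference of 0.56 ± 0.16 (adjusted p = 0.0024) no longer passed without replicate 4 of colon at E21 (adjusted p = 0.023).

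Of the mitotic kinases and checkpoint genes, 4 of 5 fell in colon from PND 3 to PND 10 and none did in brain, and all 5 differences passed. Aurkb, the kinase of the chromosomal passenger complex, had medians of 690.8, 685.4, 402.7, 302.1 and 375.4 in colon and 233.9, 190.3, 190.8, 135.1 and 83.1 in brain at E21 and PND 3, 10, 15 and 22. It fell in colon between PND 3 and PND 10 (-0.79 ± 0.11, adjusted p = 9.5e-07) and in brain in both later steps (-0.54 ± 0.13, adjusted p = 0.0027, and -0.62 ± 0.13, adjusted p = 0.0011). Bub1, a kinase of the spindle checkpoint, fell 1.55-fold in colon and 2.08-fold in brain, and Bub1b, its partner in the checkpoint, 1.93-fold in colon. In brain Bub1b was detected in no sample at PND 15 or PND 22, and was at least 1.26-fold lower at PND 22 than at E21. Aurka, which matures the spindle poles, did not pass between E21 and PND 22 in either tissue.

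Plk1, the polo kinase of mitotic entry and exit, turned in colon as Gmnn did. Its signals were 127.2, 137.2 and 145.3 at PND 22 and 88.3, 98.8 and 104.7 at PND 15, against 247.3, 269.3, 221.2, 291.7 and 360.2 at E21. The PND 22 samples lay above those of PND 15 and below those of E21, with a rise of 0.49 ± 0.09 in the last step (adjusted p = 1.4e-05). Aurka rose in the same step by 0.39 ± 0.09 (adjusted p = 0.00089), with medians of 112.9 at PND 22 and 88.1 at PND 15, a call lost with 75th percentile scaling (adjusted p = 0.018). In brain Plk1 was detected in every E21 sample and in none at PND 22, a fall of at least 1.33-fold. The 3 genes that rose in colon at PND 22 relative to PND 15 were Gmnn, Plk1 and Aurka. The 4 that fell were Stmn1, Prc1 (-0.58 ± 0.12, adjusted p = 0.00019), Cdk4 (-0.57 ± 0.13, adjusted p = 0.00037) and Cdkn1c (-0.51 ± 0.12, adjusted p = 0.0011). Both counts were shares of the set near those of all probes in that colon step, of which 9.13% rose and 9.27% fell. With 75th percentile scaling the fall of Prc1 no longer passed (adjusted p = 0.055).

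The partners of the anaphase-promoting complex, the ubiquitin ligase that ends mitosis, followed the mitotic kinases. Cdc20, which activates the complex, had medians of 488.2, 356.4, 260.4, 210.2 and 211.2 in colon and 175.8, 145.4, 150.0, 102.0 and 73.4 in brain at E21 and PND 3, 10, 15 and 22. Ube2c, its conjugating enzyme, had 562.4, 347.9, 241.9, 240.3 and 246.3 in colon and 188.6, 131.6, 161.6, 99.6 and 70.1 in brain. In colon Ube2c had covered 99.8% of its fall by PND 10, and in brain its falls lay across birth and after PND 10. Both genes fell in brain in each of the 2 later steps, and Cdc20 and Ube2c had differences of -0.55 ± 0.13 (adjusted p = 0.0015) and -0.83 ± 0.16 (adjusted p = 1.0e-04) from PND 3 to PND 10.

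Among the spindle and cytokinesis genes, Kif11, the motor that pushes the spindle poles apart, fell most in colon. Its signals were 206.0, 299.6 and 421.9 in colon at PND 22 and 1041, 927.0, 594.7, 1066 and 932.9 at E21, and 62.7, 67.2 and 75.2 in brain at PND 22 and 200.9, 216.7 and 238.9 at E21. The ages did not overlap, and the falls of 3.02-fold and 3.23-fold did not pass as different (0.10 ± 0.21, adjusted p = 0.82). The brain values at PND 22 lay near the lowest detected signals of the brain arrays (66.3 to 76.9), so that the brain fall may be understated. A dimmer probe of Kif11, detected in 38 of 53 colon and 2 of 54 brain samples, showed -0.18 in colon and -0.15 in brain and did not pass, so that the probes disagree. Prc1, which bundles the midzone of the spindle, fell 1.95-fold in colon and 3.13-fold in brain (difference 0.68 ± 0.17, adjusted p = 0.00062), and its colon medians of 1011, 1070, 801.8, 742.4 and 451.3 at E21 and PND 3, 10, 15 and 22 put most of its fall after PND 15. Its replicate 2 at PND 22 had 889.7, against 411.8 to 524.7 in the other 5. Nusap1, which binds spindle microtubules, fell 2.02-fold in colon and 2.09-fold in brain, and Kif20a, a motor of cytokinesis, 1.94-fold and 1.90-fold. Racgap1, which helps to place the cleavage furrow, fell 1.42-fold in colon and in brain was not detected at PND 22, where only a bound of at least 1.01-fold can be given.

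**Figure D5:**
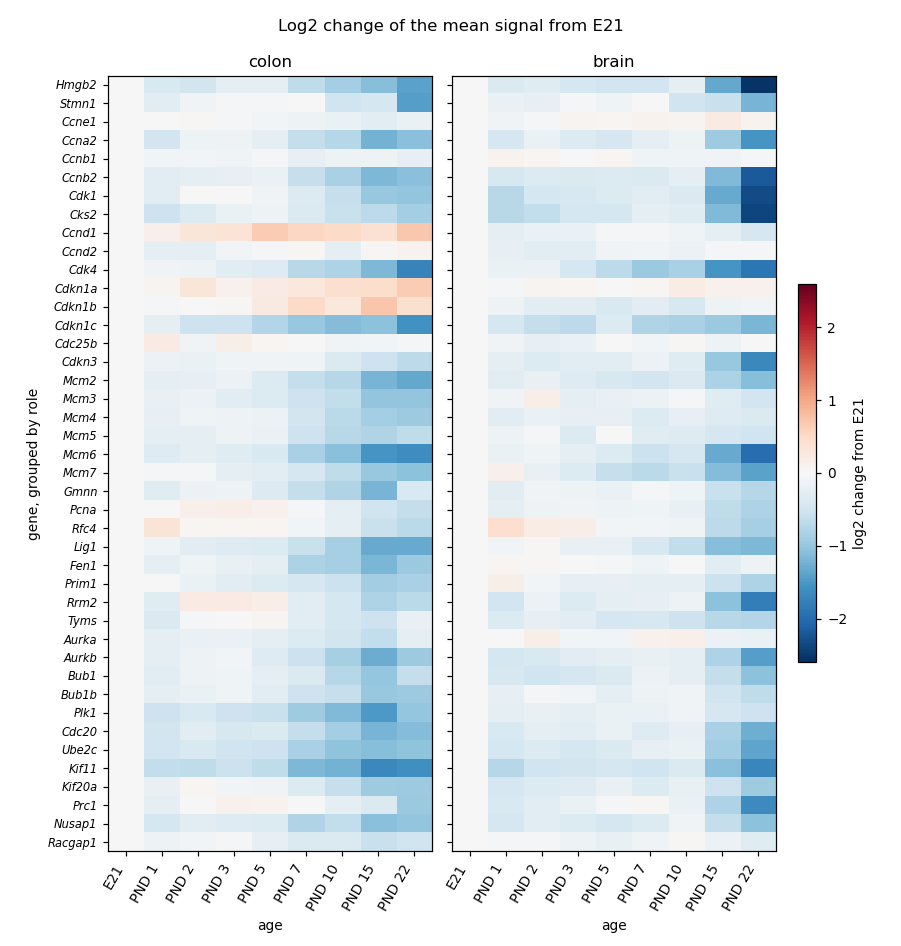
Change of the mean log2 signal from E21 (colour scale, blue lower and red higher) for each of the 42 genes (rows, grouped by role) at the 9 ages (columns), colon on the left and brain on the right. In colon most rows turn blue from PND 7 on, in brain from PND 15 on, and Ccnd1, Cdkn1a and Cdkn1b are red in colon.

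Genes grouped by the motifs in their promoter windows differed in their medians, which are given without a test. The 9 genes with both a CCAAT box and TTTGAA had a median change from E21 to PND 22 of -1.02 in colon and -1.67 in brain, and a median difference of 0.99. The 10 genes with an E2F site had -1.05 and -1.14, and a median difference of 0.10, and the 7 with none of the motifs -0.63 and -0.17, with 0.14. Cdk1 stands in both of the first groups.

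Leaving out replicate 4 of colon at E21 changed few of these counts. From E21 to PND 22, 34 genes in place of 33 were then lower in colon (Aurka was added), 2 were higher, and the median was -1.03. At PND 3 relative to E21, 8 genes were lower in place of 4, with Kif11, Lig1, Mcm3 and Nusap1 added and a median of -0.22. That count was 1 without E21 replicate 3, 5 or 6 and 2 without PND 3 replicate 1, 2, 3 or 6. In brain the 5 falls of that step were 3 without E21 replicate 3 or PND 3 replicate 3 or 6. The 2 differences between the tissues from PND 10 to PND 15 were 1 when any of 13 libraries was left out, and the 0 at PND 3 relative to E21 was 1 without E21 replicate 3 or PND 3 replicate 3 of colon.

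Markers of other cell types moved in the same steps, and their part in the results was not tested. In colon 7 of 7 epithelial markers were detected in all samples at each of the 5 ages compared, and their sum was 57600 to 64840 at PND 22 and 37530 to 43890 at PND 15. The 5 smooth muscle markers, all detected, summed to 14440 to 33660 at PND 22 and 34860 to 39060 at PND 15, and the 7 fibroblast markers, all detected, to 9691 to 29700 and 30810 to 39010. The 4 stem cell markers, of which 2 were detected in all samples, summed to 672.7 to 1032 at PND 22 and 1600 to 1757 at PND 15. In the step in which most genes fell in colon, the epithelial sum was 37450 to 48200 at PND 10 and 38900 to 43540 at PND 3, and the smooth muscle sum 27000 to 37300 and 26170 to 30810. The stem cell sum was higher at PND 10 (1231 to 1772) than at PND 3 (1055 to 1159), without overlap. The fibroblast sum was 30100 to 38390 at PND 10 and 32120 to 39520 at PND 3. The 9 erythroid markers in colon summed to 5175 to 10480 at PND 22 and 17220 to 24380 at E21, with 2 and 1 of them detected in no sample.

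In brain 9 markers of neural progenitors summed to 16010 to 21040 at PND 10, 9814 to 13900 at PND 15 and 6442 to 7495 at PND 22, with 8, 7 and 6 of them detected in all samples. The 7 oligodendrocyte markers summed to 2139 to 3839, 6628 to 11660 and 15270 to 22530 at these ages. The 6 markers listed for granule cell precursors summed to 977.1 to 1357 at PND 3, 2180 to 4385 at PND 10, 776.9 to 3865 at PND 15 and 2566 to 4188 at PND 22. Their mean sum was 2881 at PND 10 and 3113 at PND 22. Whether this sum reads dividing precursors or other granule cells was not tested. The low PND 15 library, replicate 6, had 107.8 for Cdk1, 194.7 for Cks2 and 152.0 for Hmgb2, the lowest of its age. Leaving out any of the 12 libraries of PND 10 and PND 15 left 22 to 24 falls in that brain step, against 23 with all of them.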

How the data were processed

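Transcript levels were measured on Illumina RatRef-12 BeadChips in 53 colon and 54 brain samples, grouped by tissue and age from their labels alone. The authors labelled cRNA by the TotalPrep protocol and summarized the bead signals in BeadStudio. The deposited intensities are linear and were not normalized between arrays, and the p-values that the authors deposited beside them are detection p-values against negative control beads. A table of quantile normalized intensities deposited by the authors was used as an alternative. Replicate 1 of colon at E21, which the authors judged an outlier, was not analysed here. The number of arrays limits the precision, and no depth is counted.

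The deposited intensities of all 107 arrays were quantile normalized together, raised to a floor of 1 and put on the log2 scale with limma 3.58.1 (R 4.3.3; files read by the data.table package, 1.17.8). Figures and promoter searches used Python 3.11.15 with numpy 2.4.6, pandas 2.3.3 and matplotlib 3.10.9. All 22523 probes were fitted with a mean per age in each tissue and eBayes moderation, and a fit over both tissues gave the colon change minus the brain change. Adjusted p-values are limma's, corrected by Benjamini and Hochberg's method across the whole array, a call is an adjusted p under 0.01, and errors beside log2 changes are SE. The steps were tested on simulated data. Quantile normalization assumes a like distribution of signal in all arrays, and signals near background understate changes.

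Gene symbols are those of the array annotation, and of several probes of a gene (Kif11, Mcm5) the brightest was read. The members and lists were chosen with earlier results of these data known. Described in full were the 3 members of each role with the largest change from E21 to PND 22, all G1 genes and CDK inhibitors, members called in opposite directions, and the 3 lowest and 3 highest tissue differences; of other genes, up to 3 of a list by the largest change. Promoter windows came from RefSeq tables of GRCr8. Alternatives were limma's neqc (offset 16), 75th percentile scaling, normalization within each tissue, the authors' values, detected probes alone, a floor of 16, moderation with trend and robust options, a block for the replicate number, the mean of a gene's probes, a minimum fall of 0.5, the fall from the highest age, the methods' one-way F test at an unadjusted p under 0.01 (40 of the 42 members in colon and 37 in brain, against 9011 and 8653 of all 22523 probes), and leaving out each sample of E21 and PND 3, 10, 15 and 22 in turn.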

Additional observations from a re-analysis of the deposited data

Results flagged for a closer look

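In 186 groups of samples, namely each of the 42 genes at E21 and at PND 22 in each tissue and the mean of the 42 genes at every age, 16 samples lay far from the others of their group by Dixon's criterion. Chance alone flags about 1 in 20 such groups.

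Of the 16, 7 were the same library, replicate 4 of colon at E21. It was low for the mean log2 signal of the 42 genes (8.43, against 8.81 to 8.9), Cks2 (1569, against 2075 to 2215), Mcm2 (353, against 577 to 665) and Gmnn (326, against 474 to 510). It was also low for Rrm2 (304, against 720 to 862), Ube2c (294, against 545 to 609) and Kif11 (595, against 927 to 1066). Its astrocyte marker sum was 1590, against 314.5 to 345.5 in the other 4, and its correlation with each of them was 0.9693 to 0.9717. The part of these markers in its low values was not tested.

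At PND 22 in colon, replicate 2 was high for Rrm2 (597, against 345 to 403) and Prc1 (890, against 412 to 525), replicate 1 for Cdk4 (505, against 332 to 381) and replicate 5 for Ccne1 (92, against 75.5 to 81.1). Replicate 1 of colon at PND 2 had a low mean of the 42 genes (8.48, against 8.61 to 8.67). In colon at E21, replicate 6 was high for Bub1 (452, against 330 to 348) and replicate 2 for Cdkn1a (70.0, against 59.7 to 62.5). In brain at PND 22, replicate 3 was low for Plk1 (55.4, against 61.7 to 65.5) and replicate 5 high for Racgap1 (64.4, against 50.6 to 55.2), and neither gene was detected in brain at that age.

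The tissues differed in 55 changes of single genes, by the test of colon change minus brain change. From PND 3 to PND 10 the difference was -0.90 for Rrm2, -0.86 for Hmgb2, -0.84 for Ccna2, -0.83 for Bub1 and Ube2c, -0.79 for Aurkb and -0.78 for Kif11 and Plk1. It was -0.74 for Ccnb2, -0.72 for Fen1, -0.67 for Gmnn, -0.66 for Kif20a, -0.63 for Cdk1, -0.58 for Mcm5 and -0.57 for Mcm6, Mcm2 and Mcm4. It was -0.55 for Mcm3 and Cdc20, -0.54 for Cks2, -0.51 for Aurka, -0.49 for Racgap1, -0.46 for Bub1b and -0.44 for Cdc25b.

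From PND 10 to PND 15 the difference was 0.74 for Cks2 and 0.67 for Ube2c. From PND 15 to PND 22 it was 1.11 for Ccnb2, 1.02 for Cks2, 0.98 for Gmnn, 0.97 for Cdk1, 0.95 for Aurkb, 0.91 for Hmgb2 and 0.82 for Bub1 and Rrm2. It was 0.76 for Ccna2, 0.68 for Kif11, 0.60 for Plk1, 0.59 for Mcm6, 0.55 for Cdkn3, 0.51 for Cdc20 and 0.48 for Ccnd1. Over the span from E21 to PND 22 the difference was 1.5 for Cks2, 1.29 for Cdk1, 1.15 for Hmgb2, 1.13 for Ccnd1, 1.09 for Ccnb2 and Rrm2 and 0.99 for Cdkn3. It was 0.68 for Prc1, 0.56 for Tyms, 0.54 for Cdkn1a, -0.46 for Plk1, -0.52 for Mcm3, -0.57 for Mcm4 and -0.83 for Fen1. In brain no sample was detected for Mcm3 and Plk1 at PND 22, for Cdkn1a at E21 and for Racgap1 at PND 3, so that their differences rest on a value at background and have no exact size.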

How the results depend on the processing

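No call of a gene changed direction under any alternative, with or without a sample. Of the 217 calls of single genes, 29 no longer passed with each array scaled to its 75th percentile, 12 with normexp background correction, 3 with the replicate block, 2 with normalization within each tissue, 2 with trend and robust moderation and 1 with the mean of a gene's probes. None was lost with the authors' normalized values, with detected probes alone or with a floor of 16. Under every alternative and every omission, 22 of 30 colon falls from PND 3 to PND 10, 20 of 23 brain falls from PND 10 to PND 15 and 12 of 24 tissue differences from PND 3 to PND 10 passed.

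At PND 3 relative to E21, 2 genes passed in colon with normexp correction and 1 with the 75th percentile, and 3 in brain with either. From PND 3 to PND 10, 1 gene passed in brain with the 75th percentile. The 2 tissue differences from PND 10 to PND 15 were 0 with the 75th percentile, 1 with normalization within each tissue and 5 with the replicate block, and at PND 3 relative to E21 the block gave 1. The colon share of the fall reached by PND 1 was 11.99% with the 75th percentile, where 10 genes met the minimum. The cause was not tested.

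When 1 sample was left out, colon counts ranged from 1 to 8 at PND 3 relative to E21 and from 2 to 10 from PND 10 to PND 15. Brain counts at PND 3 ranged from 3 to 6, and tissue differences from 0 to 1 at PND 3 and from 1 to 3 from PND 10 to PND 15. Depth is not counted on arrays, and their number limits the precision; genes at background, as 19 of 42 were in some brain samples, change less on this scale than their transcripts may.

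The replicate block, which pairs colon and brain samples of the same age and number, gave 25 tissue differences from PND 3 to PND 10 and 18 from PND 15 to PND 22. Of 53 such pairs, 43 had deviations correlated above 0.1, and 45 colon samples correlated best with the brain sample of their own number. This is a hint from the data, since the labels do not say that a number marks a pup.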

Other observations

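Other genes of the same processes, 118 named on the array from lists chosen with earlier results of these data known, had counts in the same steps. From PND 3 to PND 10, 46 fell and 2 rose in colon, and 7 fell and 5 rose in brain (3.26% of all probes fell and 3.13% rose in colon, and 3.84% and 4.85% in brain). From PND 10 to PND 15, 15 fell in colon and 32 in brain (0.644% and 3.84% of all probes). From PND 15 to PND 22, 10 fell and 12 rose in colon, a share near the 9.27% and 9.13% of all probes, and 17 fell and 1 rose in brain (1.33% and 1.90%). Gins1, a subunit of the replicative helicase, and Nuf2 and Spc25 of the kinetochore fell in both tissues over the whole span, with log2 changes of -0.80, -1.14 and -1.01 in colon and -1.22, -1.44 and -1.39 in brain. Between PND 3 and PND 10 the clamp loader subunit Rfc3 fell in both tissues (-0.61 in colon and -0.60 in brain), and its difference between them did not pass (-0.01, adjusted p = 0.97, limma with Benjamini-Hochberg adjustment). Rfc5 had -0.51 in colon and 0.01 in brain, a difference that passed (adjusted p = 0.0020). The difference between the subunits was not tested.

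Some other regulators of growth and chromatin are given with their values. Mycn, a transcription factor of proliferating progenitors, had a log2 change of -1.67 ± 0.14 in colon and -2.38 ± 0.10 in brain from E21 to PND 22, in colon mostly after PND 15 (-1.13). Its relative Myc changed by -0.30 in colon and -1.98 in brain, and in colon it was higher at PND 22 than at PND 15 (0.31, adjusted p = 0.0046, limma with Benjamini-Hochberg adjustment). Gadd45a, a stress and growth arrest gene, was higher at PND 22 than at E21 in both tissues, by 2.05 in colon and 0.96 in brain. Dnmt1, the maintenance DNA methyltransferase of S phase, changed by -1.37 in colon and -1.51 in brain, and Hmgn2, a nucleosome-binding protein, by -1.40 and -1.47.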
